A study of Mus musculus with 5 samples.

Results

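The genes described here are the G1 cyclins, their kinases, an activating phosphatase and an F-box protein, listed by symbol as Ccnd1, Ccnd2, Ccnd3, Cdk4, Cdk6, Cdk2, Ccne1, Ccne2, Cdc25a and Skp2. Each was represented by the array feature that names only that gene, with the highest mean over all 5 arrays where there were several. Of the 10 genes, 9 were measured in this way, each by 1 feature, out of 22180 genes in all. Ccne2, a second E-type cyclin, is listed only on a feature that also names Ints8, so no value is given for it. The 2 ATRA arrays held RNA of hematopoietic stem cells (HSCs) from C57BL/6 mice, sorted by flow cytometry after stem and progenitor cells had been cultured for 24 h with 5 µM all-trans retinoic acid (ATRA), the active form of vitamin A. The 3 DMSO arrays held HSCs sorted after the same culture with the solvent DMSO. Both groups share the strain, the culture and the sort after culture. The series asks, by its title, how vitamin A and retinoic acid bear on the exit of HSCs from dormancy, and these genes carry the entry into the cell cycle. Nothing in the labels says whether replicates are separate cultures or mice. The p-values thus reflect the spread among these arrays alone, possibly a technical spread, and the small number of arrays limits every value.

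A cell leaving quiescence first makes D-type cyclins in response to growth factors. They bind CDK4 or CDK6, and the active kinases phosphorylate the retinoblastoma protein and its relatives, which frees E2F factors. E2F then drives genes of S phase together with E-type cyclins, which activate CDK2. CDC25A removes inhibitory phosphates from the kinases, and SKP2 marks the CDK inhibitor p27 for destruction. In dormant HSCs this machinery is held low, and CDK6 protein is known from human blood stem cells to set how fast they divide after a stimulus.

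The ATRA arrays stood apart from the DMSO arrays over the whole array, which touches every result here. The SD over all 41345 features was 1.77 and 1.49 in ATRA replicates 1 and 2, against 1.96 to 1.97 in the DMSO arrays. Over the features, which share an array and are no replicates, Pearson's r was 0.73 for the pair of ATRA arrays and 0.97 to 0.98 for pairs of DMSO arrays. Genes bright in DMSO tended to be dimmer in either ATRA array, so each of the 9 measured genes is also set beside all genes whose DMSO mean lies within 0.25 of its own on the log2 scale, called genes of its level. Of the HSC marker genes, 12 of 14 were measured, and 0 rose, 6 fell and 6 did not pass, beside 15.5% of all genes that fell. With each array's trend on the DMSO level removed, 0 of the 12 passed. The stem cell factor receptor gene Kit had log2 values of 8.32 and 7.06 in ATRA, against 10.90, 10.97 and 10.96 in DMSO, a log2 difference of -3.25 beside a median of -2.32 among genes of its level. The sort marker Procr stood at 7.68 and 7.13 in ATRA, against 7.68, 7.60 and 7.85 in DMSO, and Slamf1 at 6.72 and 6.10 in ATRA, against 8.20, 7.16 and 8.15 in DMSO. The log2 differences of Procr and Slamf1 were -0.30 and -1.43, beside medians of -0.82 and -0.91 among genes of their levels. Of 44 markers of other marrow cells, 35 were measured. Of these, 3 rose, 1 fell and 31 did not pass. Those that rose were S100a9 (of 7 neutrophil genes), Cd3g (of 5 T and NK cell genes) and endothelial Cdh5 (of 6 stroma genes). The gene that fell was Itga2b (of 4 megakaryocyte genes). The shares of all genes that rose and fell were 6.48% and 15.5%. The mean log2 value of these 35 markers was 6.35 and 6.41 in ATRA, against 6.10 to 6.27 in DMSO. Their median log2 difference was 0.26, and 0.05 with each array's trend on the DMSO level removed. In that fit 1 of the 35 rose, a megakaryocyte gene, and 0 fell, beside 2.28% and 1.01% of all genes. The part of these markers in the results below was not tested. Fewer cells of a type and less RNA per cell cannot be told apart in such bulk samples.

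All 9 measured genes had lower values in both ATRA arrays than in any DMSO array, a separation that 29.2% of all genes showed in this direction and 33% in the other. Cdk6, Ccnd2 and Cdk4 had the largest differences of the 9. At a limma adjusted p under 0.05 (Benjamini-Hochberg, all 22180 genes), 6 of the 9 fell, 0 rose and 3 did not pass. The genes that fell were Ccnd1, Ccnd2, Ccnd3, Cdk6, Cdk2 and Cdc25a. Over all genes, 15.5% fell and 6.48% rose. Among genes of the same level as each of the 9, between 38.6% and 57.3% fell, and 71.3% to 85.8% had both ATRA values below all DMSO values. The share of the 9 that fell was 66.7%, and the share of genes of their levels that fell averaged 51.2%. The median log2 difference of the 9 genes, ATRA minus DMSO, was -1.99, against 0.16 over all genes. With 2 against 3 arrays, an exact two-sided permutation test of a single gene cannot give a p below 0.1.

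**Figure D1:**
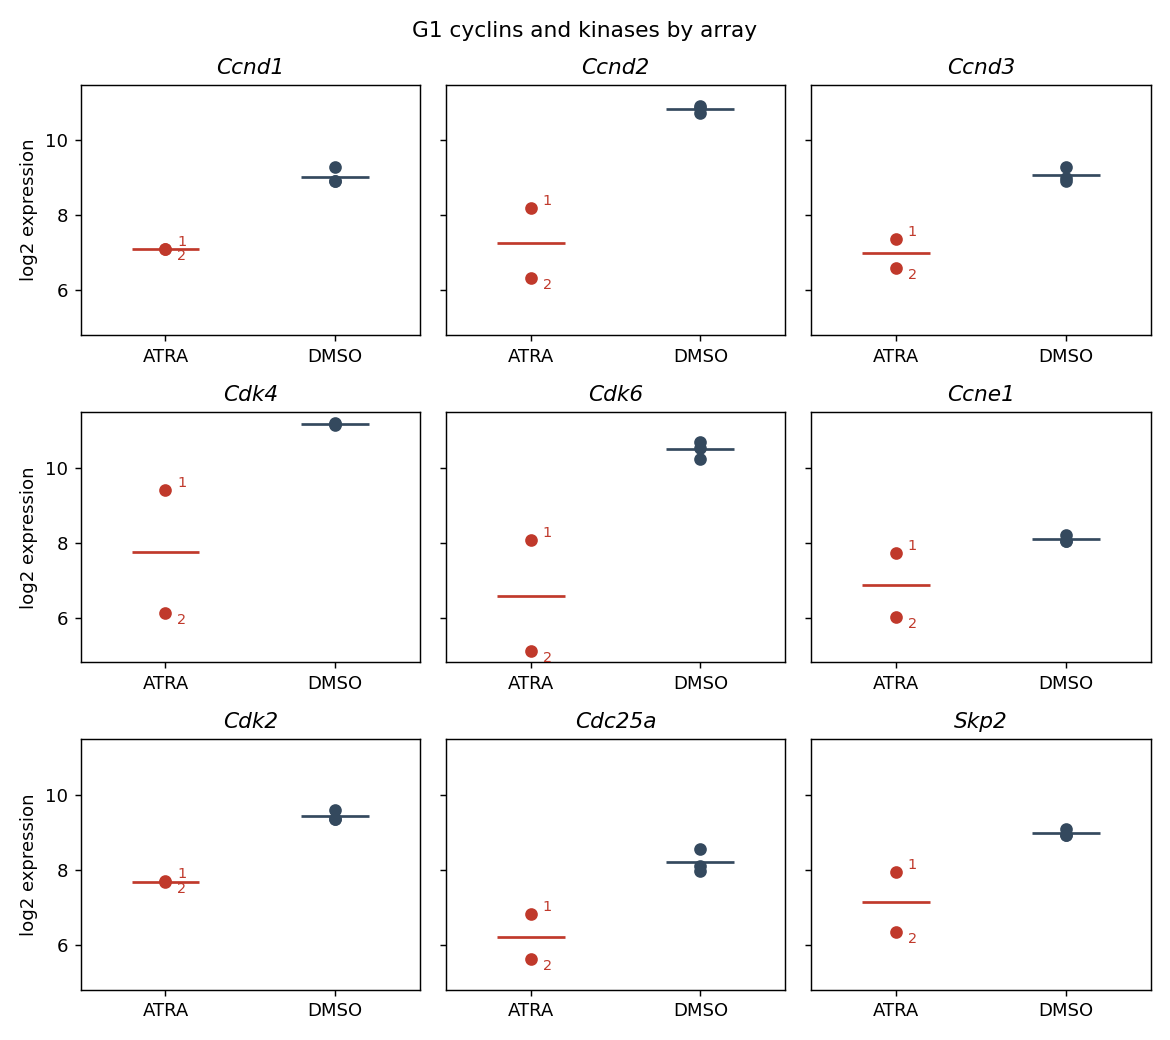
Each panel plots the log2 expression of 1 gene, with the ATRA arrays (red, numbered by replicate) left of the DMSO arrays (dark), and a line at each group's mean. In all 9 panels both ATRA points lie below the 3 DMSO points, and the gap between the ATRA arrays runs from 0.0085 in Ccnd1 to 3.27 in Cdk4.

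The D-type cyclins are the sensors of growth factor signals, and each of the 3 genes fell. Cyclin D1 (Ccnd1, feature 17498502) had log2 values of 7.10 and 7.10 in ATRA, against 8.91, 9.29 and 8.91 in DMSO. The ATRA arrays were almost equal, and both were well below the lowest DMSO array. Ccnd1 was 3.82-fold lower (log2 difference -1.93, SE 0.17, limma adjusted p = 0.00771). The 904 genes of its level had a median difference of -1.73.

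Cyclin D2 (Ccnd2, feature 17471222), a D-type cyclin that cytokine receptors induce in blood cells, had log2 values of 8.19 and 6.33 in ATRA, against 10.87, 10.74 and 10.91 in DMSO. The groups were far apart, and ATRA replicate 2 was much the lower of the ATRA arrays. Ccnd2 was 11.9-fold lower (log2 difference -3.58, SE 0.58, limma adjusted p = 0.0218). The 154 genes of its level had a median difference of -2.36, with an interquartile range from -3.10 to -1.33, so Ccnd2 lay below that range. It did so in each ATRA array taken alone, where it differed from the median of its level by -1.42 in replicate 1 and by -1.17 in replicate 2.

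Cyclin D3 (Ccnd3, feature 17338269), the D-type cyclin that lymphoid and erythroid precursors depend on, had log2 values of 7.38 and 6.60 in ATRA, against 8.92, 9.28 and 8.995 in DMSO. The 2 groups did not overlap, and the ATRA arrays lay closer together than for Ccnd2. Ccnd3 was 4.23-fold lower (log2 difference -2.08, SE 0.28, limma adjusted p = 0.0154). The 887 genes of its level had a median difference of -1.74, and Ccnd3 lay inside their interquartile range, from -2.18 to -1.26.

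The kinases that D-type cyclins activate, Cdk4 and Cdk6, showed the 2 widest gaps between the ATRA arrays among the 9 genes. Cdk6 (feature 17434297) had log2 values of 8.06 and 5.11 in ATRA, against 10.68, 10.53 and 10.24 in DMSO. Replicate 2 was lower than replicate 1 by 2.95, while the DMSO arrays had an SD of 0.23. Cdk6 was 14.9-fold lower on average (log2 difference -3.90, SE 0.91, limma adjusted p = 0.0470). Against a median of -2.45 among 207 genes of its level, Cdk6 lay below their interquartile range, from -3.01 to -1.70. It did so in each ATRA array, in replicate 1 only just (-2.43 against a lower quartile of -2.33).

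Cdk4 (feature 17237899) had log2 values of 9.39 and 6.12 in ATRA, against 11.13, 11.17 and 11.15 in DMSO. The DMSO arrays were nearly equal, with an SD of 0.0205, and the ATRA arrays differed by 3.27. The log2 difference of -3.39 (SE 0.999, 95% interval -6.05 to -0.74) did not pass (limma adjusted p = 0.0765). In ATRA replicate 1 the difference from the DMSO mean was -1.76, inside the interquartile range of the 101 genes of its level (-2.12 to 0.09). In replicate 2 it was -5.03, below their interquartile range (-4.31 to -2.49).

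Further along the pathway, cyclin E1 (Ccne1, feature 17489886), the activator of CDK2 at the start of S phase, had log2 values of 7.73 and 6.03 in ATRA, against 8.03, 8.21 and 8.04 in DMSO. Replicate 1 lay just under the DMSO arrays and replicate 2 far under them. The log2 difference of -1.21 (SE 0.53, 95% interval -2.63 to 0.20) did not pass (limma adjusted p = 0.163). The 1516 genes of its level had nearly the same median difference, -1.12.

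Cdk2 (feature 17246299), the kinase partner of the E-type cyclins, had log2 values of 7.69 and 7.67 in ATRA, against 9.34, 9.59 and 9.35 in DMSO. As for Ccnd1, the ATRA arrays were almost equal and well below DMSO. Cdk2 was 3.36-fold lower (log2 difference -1.75, SE 0.14, limma adjusted p = 0.00714), a direction that turned to 0.18 when the trend on expression level was removed. The 633 genes of its level had a median difference of -1.96, and Cdk2 lay inside their interquartile range, from -2.45 to -1.40. In replicate 1 it was further below DMSO than that median (-1.74 against -1.34), and in replicate 2 it was nearer to DMSO (-1.76 against -2.53).

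Cdc25a (feature 17522235), the phosphatase that activates CDK2 at the G1 to S transition, had log2 values of 6.82 and 5.61 in ATRA, against 8.55, 8.10 and 7.96 in DMSO. Its DMSO arrays had an SD of 0.31, the widest of the 9 genes, and the ATRA arrays were still clearly lower. Cdc25a was 3.96-fold lower (log2 difference -1.99, SE 0.43, limma adjusted p = 0.0392). The 1489 genes of its level had a median difference of -1.19. Cdc25a lay below their interquartile range in both ATRA arrays, in replicate 1 only just (-1.38 against a lower quartile of -1.36).

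Skp2 (feature 17315878), the substrate-binding subunit of the ubiquitin ligase that removes p27, had log2 values of 7.94 and 6.35 in ATRA, against 9.08, 8.93 and 8.92 in DMSO. The log2 difference of -1.83 (SE 0.50, 95% interval -3.15 to -0.51) did not pass (limma adjusted p = 0.0650). It was close to the median of -1.69 among 979 genes of its level.

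In ATRA replicate 2, 8 of the 9 genes had lower values than in replicate 1, the exception being Ccnd1, and 43.4% of all genes had the lower value in replicate 2. Genes of the level of each of the 9 also had a lower median difference in replicate 2. The medians in replicates 1 and 2 were -0.82 and -1.40 at the level of Ccne1, the dimmest in DMSO, and -1.07 and -3.44 at that of Cdk4, the brightest. Relative to genes of the same level, 7 of the 9 genes were below the median in replicate 1 and 7 in replicate 2, and 5 were below it in both (Ccnd2, Ccnd3, Cdk4, Cdk6 and Cdc25a). Below the lower quartile of their level in both arrays were 3 genes, Ccnd2, Cdk6 and Cdc25a. In replicate 1, Cdk6 (-2.43 against -2.33) and Cdc25a (-1.38 against -1.36) were only just below that quartile. Those margins were smaller than the SDs of their DMSO arrays, 0.23 and 0.31. Ccne1 and Skp2 were above the median of their level in replicate 1, by 0.46 and 0.15, and below it in replicate 2. Ccnd1 and Cdk2 showed the opposite order, above it in replicate 2 by 0.25 and 0.78. These are descriptions, with no test.

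**Figure D2:**
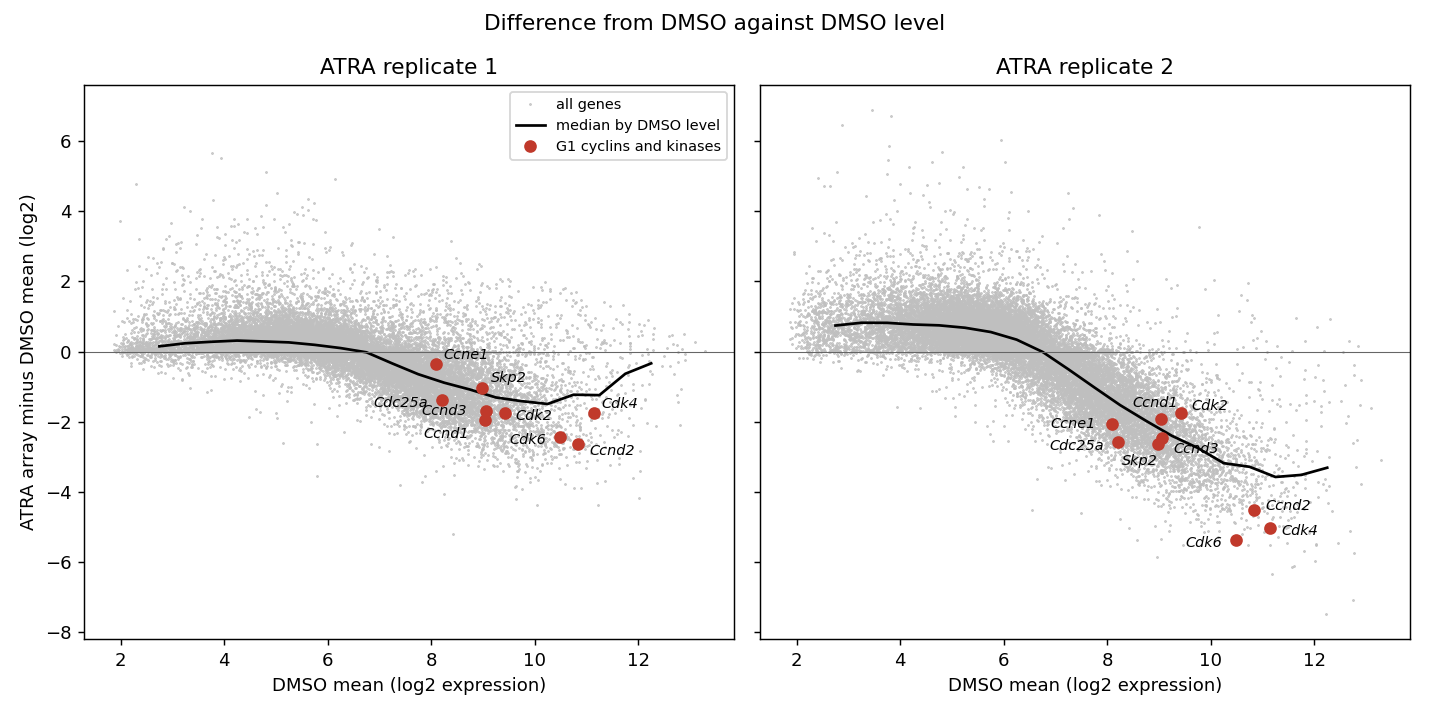
For each ATRA replicate, the difference of the array from the DMSO mean (log2) is plotted against the DMSO mean (log2 expression), with all genes in grey, their median in steps of DMSO level as a black line and the 9 genes in red. Cdk6, Ccnd2 and Cdc25a lie below the line in both panels, and Cdk2 lies below it in replicate 1 and above it in replicate 2.

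With each array's trend on the DMSO level removed before the fit, Ccnd2 was the 1 of the 9 genes that passed (log2 difference -0.96, SE 0.14, limma adjusted p = 0.0384). In that fit 1.01% of all genes fell and 2.28% rose. The trend was fitted to each array alone, which changed the gap between the ATRA arrays before the SE was taken. The SE of Ccnd2 was 0.58 as deposited, and that of Ccnd1 went from 0.17 to 0.34. The uncertainty of the trend is not part of these p-values. Cdk6 differed by -1.45 (SE 0.36, adjusted p = 0.105), Cdc25a by -0.83 (adjusted p = 0.157) and Cdk4 by -0.63 (adjusted p = 0.318). The differences of Ccnd3, Ccnd1, Skp2 and Ccne1 shrank to -0.36, -0.23, -0.16 and -0.13, with adjusted p between 0.315 and 0.851. After quantile normalization was repeated, the 3 genes that passed were Ccnd1, Ccnd2 and Ccnd3, and 7.86% of all genes fell in that fit. After cyclic loess normalization they were Ccnd2, Ccnd3 and Cdk6, and 6.78% of all genes fell. Ccnd2 alone among the 9 genes passed in all 4 of these fits.

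The calls also changed when arrays were left out, and the same loss followed whichever DMSO array was removed. Without DMSO replicate 1, 2 or 3, none of the 6 genes that fell passed, nor did any other of the 22180 genes by limma (before adjustment, 5991, 6065 and 5907 genes had a p under 0.05), though all 9 differences stayed negative and that of Ccnd2 lay between -3.63 and -3.54. The adjusted p of Ccnd2 was then between 0.0989 and 0.109. Without ATRA replicate 2, 7 of the 9 genes passed as lower, beside 21.3% of all genes. In that fit Cdk4 (-1.76, adjusted p = 0.00756) and Skp2 (-1.03, adjusted p = 0.0158) passed, Cdc25a did not (-1.38, adjusted p = 0.0664), and Cdk6 differed by -2.43 and Ccnd2 by -2.65. Without ATRA replicate 1 all 9 passed as lower, beside 30.6% of all genes. A lone ATRA array has no spread of its own, so these 2 fits borrow it from DMSO.

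**Figure D3:**
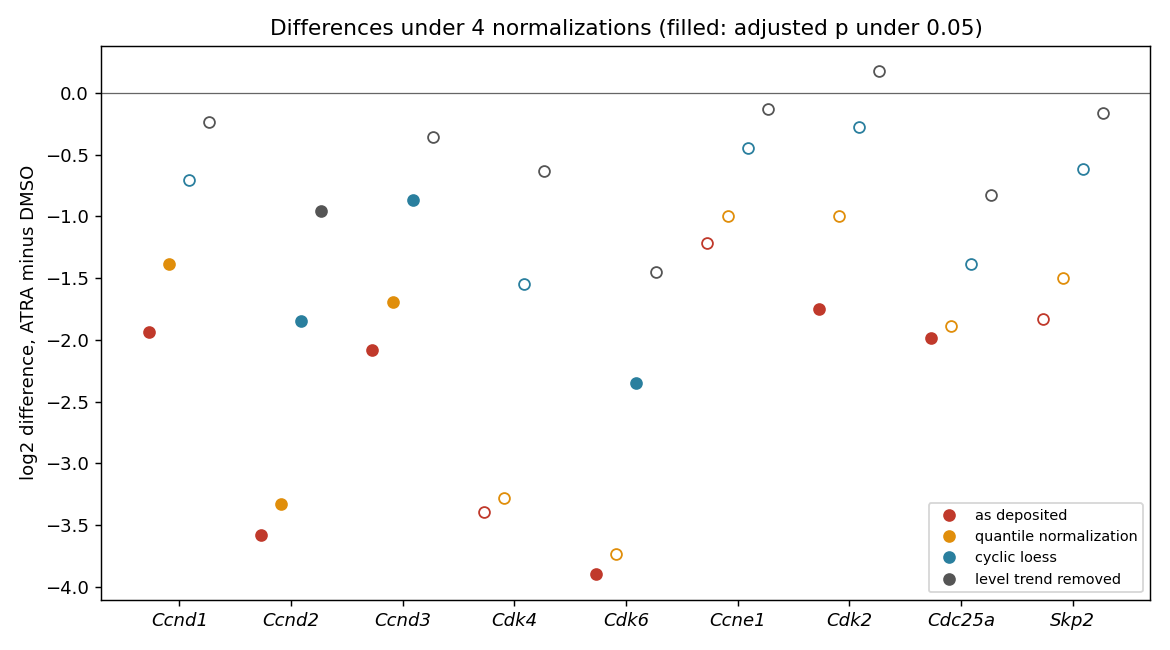
The log2 difference, ATRA minus DMSO, of each of the 9 genes is plotted for the values as deposited and after 3 other normalizations, with filled points for a limma adjusted p under 0.05. Ccnd2 is filled in all 4, and Cdk2 is the 1 gene with a point above 0 (0.18, level trend removed).

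The RefSeq promoter table of build GRCm38.p6 holds 9 windows for 7 of the 10 genes (Ccnd3, Cdk4, Cdk6, Ccne1, Cdk2, Cdc25a and Skp2), each from 250 bases before the start of transcription to 50 after it. E2F factors, the transcription factors downstream of the G1 kinases, bind words such as TTTCCCGC, TTTGGCGC, TTTCGCGC and TTTGCCGC, which were searched on both strands. Of the 9 windows, 2 held such a word, those of Cdc25a and Cdk2, and 2.26% of all 32851 windows did. Stretches of both are printed in gene direction, with the E2F word in capitals, which for Cdk2 reads on the opposite strand. The Cdc25a stretch is chr9:109875486-109875545 on the plus strand, and the Cdk2 stretch is chr10:128705158-128705217 on the minus strand.
Cdc25a: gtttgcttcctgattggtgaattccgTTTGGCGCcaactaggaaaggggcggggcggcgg
Cdk2: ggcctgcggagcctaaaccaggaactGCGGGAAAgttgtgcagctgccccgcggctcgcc

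The word AGGTCA is the core site that retinoic acid receptors and other nuclear receptors bind in pairs. Of the 9 windows, 3 held it on either strand, those of Cdk4 and Cdc25a and 1 of Ccnd3, beside 16.3% of all windows. Each of the 3 held 1 exact copy, so none held a pair of it, and variants of the word were not searched. The word is shown in capitals, as TGACCT where it reads on the opposite strand, because ATRA is the ligand of those receptors. The Cdc25a stretch is chr9:109875379-109875438, the Cdk4 stretch chr10:127063407-127063466 and the Ccnd3 stretch chr17:47504928-47504987, all on the plus strand.
Cdc25a: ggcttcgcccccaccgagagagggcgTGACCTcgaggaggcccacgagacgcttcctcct
Cdk4: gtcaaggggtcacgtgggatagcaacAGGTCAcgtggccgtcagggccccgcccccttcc
Ccnd3: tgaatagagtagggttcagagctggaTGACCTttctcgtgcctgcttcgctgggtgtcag
A match of letters does not show that a factor binds there.

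The other genes of the G1 to S pathway were listed by role, 58 in all, of which 54 were measured. Among them 0 rose, 21 fell and 33 did not pass, with a median log2 difference of -1.46. The share that fell was 38.9%, above the 15.5% of all genes and next to the 39.4% that fell, on average, among genes of their levels. With the level trend removed, 2 rose and 2 fell.

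The INK4 and CIP/KIP proteins inhibit the kinases described above, and 2 of the 7 fell (28.6%, beside 15.5% of all genes and 14.9% of genes of their levels). Cdkn1a (p21) had log2 values of 7.21 and 5.88 in ATRA, against 9.12, 9.11 and 8.83 in DMSO (log2 difference -2.47, limma adjusted p = 0.0253). Cdkn2d, the gene of p19INK4d, fell by 1.14 (adjusted p = 0.0200). Neither passed with the level trend removed, where Cdkn1a differed by -0.78 (adjusted p = 0.0822) and Cdkn2d by -0.45 (adjusted p = 0.323). Cdkn2a, Cdkn1b (p27, the target of SKP2) and Cdkn1c (p57) differed by 0.28, -0.17 and -0.06 and did not pass. The median of the 7 genes was -0.06.

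Of 13 pocket proteins, E2F and DP factors, 0 rose, 6 fell and 7 did not pass. The share of the 13 that fell was 46.2%, beside 15.5% of all genes and 40.7% of genes of their levels. Rb1, the retinoblastoma protein gene that CDK4 and CDK6 act on, had log2 values of 6.92 and 5.77 in ATRA, against 8.86, 8.48 and 8.48 in DMSO (log2 difference -2.26, limma adjusted p = 0.0249), with a median of -1.38 among genes of its level. E2f8 (-2.43), a repressor E2F, E2f4 (-3.17), which works with pocket proteins in quiescent cells, and the pocket protein gene Rbl2 (-1.17) also fell, beside level medians of -2.30, -2.36 and -1.31. E2f1, an activator, differed by -0.50 (adjusted p = 0.0930). None of these 5 genes passed with the level trend removed, and the differences of E2f1 and Rbl2 turned to 0.53 and 0.15. In that fit Tfdp1, a DNA-binding partner of E2F factors that falls outside the rule for named genes and was picked after its values were seen, passed as higher, by 0.97 (adjusted p = 0.0362). With values as deposited, Tfdp1 was lower in both ATRA arrays than in DMSO and differed by -1.84 (adjusted p = 0.116).

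Among 7 measured later cyclins, their kinase and the subunits of the CDK-activating kinase, 1 fell (14.3%, beside 15.5% of all genes and 45.4% of genes of their levels). That was Cdk7, the kinase that phosphorylates the activation loop of CDK2 and CDK4, with log2 values of 6.36 and 5.61 in ATRA, against 7.91, 7.85 and 7.77 in DMSO. It fell by 1.86 (limma adjusted p = 0.0157), beside a level median of -0.92, and by 0.96 with the level trend removed (adjusted p = 0.0454). Its cyclin partner Ccnh differed by -1.60 (adjusted p = 0.0715) and by 0.47 with the level trend removed (adjusted p = 0.117). As deposited, Cdk1 differed by -2.87 (adjusted p = 0.0787) and cyclin A2 (Ccna2) by -2.52 (adjusted p = 0.171). Ccna2 stood at 8.54 and 4.82 in ATRA, against 9.11, 9.39 and 9.09 in DMSO, so that replicate 2 made most of that difference.

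Of the other CDC25 phosphatases and inhibitory kinases, 3 were measured and none passed. The inhibitory kinase gene Wee1 differed by -2.54 (limma adjusted p = 0.0854), Cdc25c by -0.82 (adjusted p = 0.222) and Cdc25b by -0.30 (adjusted p = 0.247). Beside these, Cdc25a was the 1 CDC25 gene that fell, and the difference between them was not tested. Genes of the levels of Cdc25a, Cdc25c and Cdc25b had median differences of -1.19, -0.17 and 0.05. With the level trend removed, the 3 genes differed by -0.83, -0.63 and -0.30, and none passed.

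Partners of SKP2 and related ligases gave 2 falls among 9 measured genes (22.2%, beside 15.5% of all genes and 42.3% of genes of their levels). Fzr1, which encodes the CDH1 subunit that keeps SKP2 low in G1, had log2 values of 7.29 and 7.53 in ATRA, against 9.25, 9.21 and 9.16 in DMSO (log2 difference -1.80, limma adjusted p = 0.00688). Genes of its level had a median of -1.81, and its difference was 0.005 with the level trend removed. Fbxw7, the F-box protein that marks cyclin E for destruction, fell by 0.64 (adjusted p = 0.0334), beside a median difference of 0.12 among 2135 genes of its level. With the level trend removed its difference was -0.71 (adjusted p = 0.0633). Fbxo31, an F-box protein reported to act on cyclin D1, differed by -0.52 (adjusted p = 0.0506) and by 0.79 with the level trend removed (adjusted p = 0.104). Cks1b, the cofactor that SKP2 needs to bind p27, differed by -0.23 (adjusted p = 0.575), with log2 values of 8.54 and 7.54 in ATRA, against 8.15, 8.33 and 8.33 in DMSO. With the level trend removed its difference was 0.97 (adjusted p = 0.0560).

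Genes of S phase that E2F drives fell in 10 of 15 measured cases, and 0 rose. The share that fell was 66.7%, beside 15.5% of all genes and 48.4% of genes of their levels. The licensing factor gene Cdt1 had log2 values of 6.24 and 6.01 in ATRA, against 8.86, 8.85 and 8.64 in DMSO, and was 6.32-fold lower (limma adjusted p = 0.00627). The MCM helicase genes Mcm2 and Mcm7 were 13.4-fold and 7.69-fold lower (adjusted p = 0.00767 and 0.00916). The log2 differences of Cdt1, Mcm2 and Mcm7 were -2.66, -3.74 and -2.94, beside level medians of -1.55, -2.40 and -2.17. With the level trend removed, Cdt1, Mcm2 and Mcm7 differed by -1.11, -1.22 and -0.80 and did not pass (adjusted p = 0.0750, 0.0868 and 0.131). The median log2 difference of the 15 genes was -2.50, and -0.70 with the level trend removed. In that fit, 2 genes outside the rule for named genes, picked after their values were seen, passed in opposite directions. Mcm4 fell by 1.23 (adjusted p = 0.0270), and the sliding clamp gene Pcna rose by 1.41 (adjusted p = 0.0191), whereas with values as deposited Pcna differed by -1.73 (adjusted p = 0.197). The proliferation marker Mki67 stood at 7.99 and 6.24 in ATRA, against 10.52, 10.90 and 10.85 in DMSO. Its log2 difference was -3.64, beside a level median of -2.33.

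**Figure D4:**
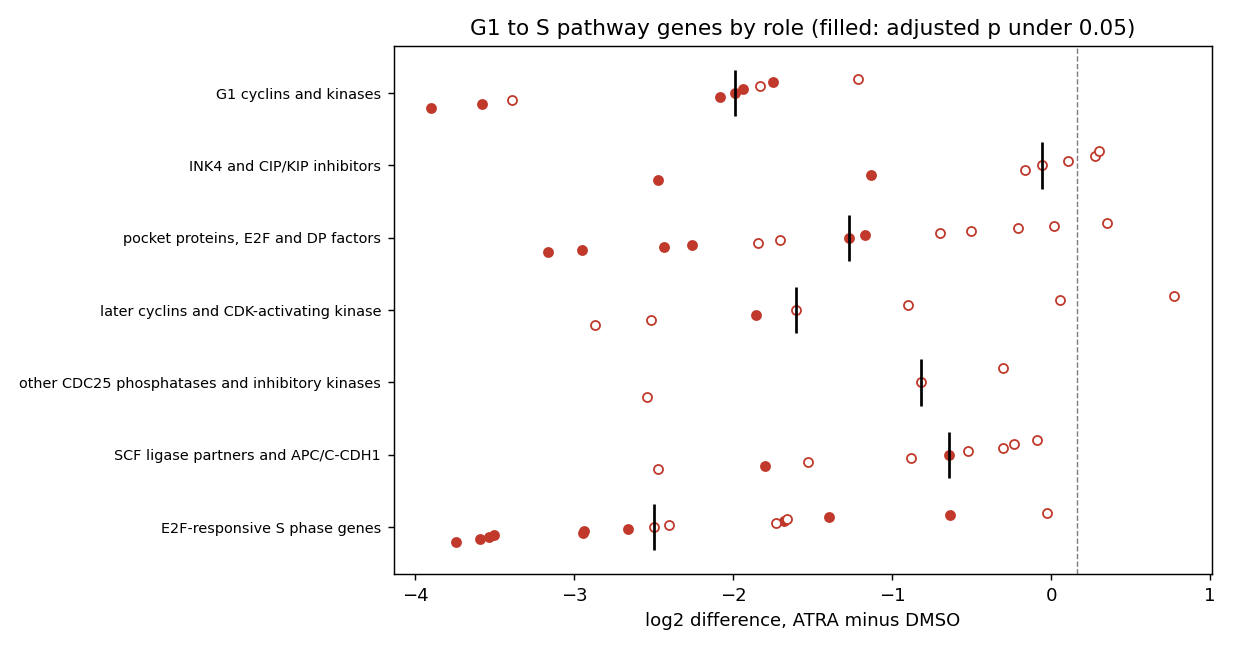
Each point is 1 gene's log2 difference, ATRA minus DMSO, by role in the G1 to S pathway, filled where the limma adjusted p was under 0.05, with a black line at each list's median and a dashed line at the median of all genes (0.16). The medians run from -2.50 for S phase genes and -1.99 for the G1 cyclins and kinases to -0.06 for the inhibitors. With the level trend removed, which is not plotted, these medians are -0.70, -0.36 and 0.01.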

How the data were processed

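The authors deposited log2 expression values, 1 for each of 41345 array features on each of 5 arrays. Tools named in the submitters' processing notes, in no stated role, are limma 3.28.20, oligo 1.36.1 and RMA. A build or annotation is not given in the sources used here. Per the labels' protocols, small amounts of DNase-treated RNA were labelled with biotin. RMA usually makes arrays alike in spread, but these columns were not.

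Features were named by the platform table, with symbols updated by gene identifier (23521 features with 1 gene, 1814 with several, 16010 unnamed). None of the 9 measured genes had the same deposited value in all DMSO arrays, as 1435 of the 22180 genes did. ATRA was compared with DMSO by limma 3.58.1 (R 4.3.3), two-sided, on group means by lmFit and eBayes. Adjusted p-values are by Benjamini-Hochberg over the 22180 genes. The fit had 3 residual and 1.52 prior degrees of freedom. The fit was also run on simulated data that had the DMSO spread in both groups. Such data lack the wider gaps between the ATRA arrays, so they cannot show how the fit behaves here. Differences are on the deposited log2 scale, which compresses changes of dim features. The level trend is a lowess curve (span 0.3) of each array's difference from the DMSO mean on that mean. The text names the 10 listed genes, the 3 genes with the smallest p in each pathway list, and a fixed set of pathway and sort genes. Of that set, Ly6a was not analysed here. The genes, lists and settings were chosen with earlier results of these data known. The replicate numbers are shared between groups, and whether they mark pairs is not given in the labels.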

Additional observations from a re-analysis of the deposited data

How the results depend on the processing

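The difference of each of the 9 genes stayed negative under all settings run, except that of Cdk2, which was 0.18 with the level trend removed. Of the counts with values as deposited, 4865 of all genes, 6 of the 9 and 21 of the 54 other pathway genes passed. Leaving out 1 array at a time gave 0 to 14207, 0 to 9 and 0 to 47. Without any 1 of the DMSO arrays no gene passed (6, 6 and 7 of the 9 at an unadjusted p under 0.05 without replicates 1, 2 and 3). Without ATRA replicate 1 the counts were 14207, 9 and 47, and without replicate 2 they were 7683, 7 and 33. Both fits take the spread of the remaining ATRA array from DMSO. With the replicate number as a block, 0, 0 and 0 passed (5412 of all genes and 8 of the 9 at an unadjusted p under 0.05). Deviations of same-numbered arrays from their group means correlated at 0.13 and 0.10, with only 2 shared numbers. The deviations of the 2 ATRA arrays mirror each other, so these correlations are not separate values and do not decide whether arrays are paired. With array weights 0, 0 and 0 passed (4377 of all genes and 8 of the 9 at an unadjusted p under 0.05). Repeated quantile normalization gave 2182 (439 higher, 1743 lower) and 3 of the 9, cyclic loess 2275 (771 higher, 1504 lower) and 3, the level trend removed 728 (505 higher, 223 lower), 1 of the 9 and 4 pathway genes, and an adjusted p under 0.1 gave 7755 and 32 pathway genes. Centring each array put the median of all genes at -0.11 instead of 0.16 and gave 560 higher and 4542 lower. The cause of these shifts was not tested. The remaining settings (dim features left out, an intensity trend, at least 1.5-fold, features averaged) kept 6 of the 9.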
